A study of Mus musculus with 12 samples.

Results

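The genes described here are 35 genes linked to states of microglia, the resident immune cells of the brain. They were taken from the 44760 genes that the count tables of both ages share. They were chosen as a named list in 2 subgroups, 25 plaque-associated and 10 homeostatic genes. The rule is a list of names with no threshold on a measured value, drawn up with earlier results of these data known. All 35 genes were found under their listed symbols and passed the filter on low counts in each comparison.

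Microglia in a healthy brain keep a homeostatic state, in which they survey the tissue with receptors for nucleotides, for the neuronal chemokine fractalkine and for colony-stimulating factor. Microglia that touch amyloid plaques take up lipids and debris through TREM2, a surface receptor that signals through its adaptor TYROBP, and switch to a plaque-associated programme of receptors, lysosomal and lipid-handling genes and secreted factors. That programme is known from mouse models of amyloid deposition, where the homeostatic genes are often lower in the cells near plaques.

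RNA came from the hippocampus of male APPswe/PS1dE9 (APP/PS1) mice on a C57BL/6 background (N9B6), which carry a Swedish-mutant amyloid precursor protein and a presenilin 1 that lacks exon 9, and which form plaques. Nicotine hydrogen tartrate, labelled as 48 mg/kg/h, or saline was given for 14 days from an osmotic mini pump under the skin. Each infusion was given at 2 ages, 7 and 18 months, with 3 libraries for each of the 4 groups. All groups carry the transgenes, so that no value below compares mice with and without them. The labels do not say that the 3 libraries of a group come from 3 different mice in so many words, so that a p-value measures the spread between libraries, which may be technical.

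The libraries held 21260068 to 29245972 counts. Levels are given in CPM, which are counts per library size with TMM factors over the 12 libraries, and n = 3 for every group mean. Both ages were deposited in separate tables, so that age cannot be told apart from anything that differed in how the tables were made. Genes with more than 5000 nt of exon took 39.4% to 40.3% of the counts at 18 months and 26.1% to 27.1% in 5 of the 6 libraries at 7 months, and 35.9% in 7-month saline library 2. That library stood apart in the present genes too, being the lowest of the 6 libraries at 7 months for 18 of the 25 plaque-associated and 5 of the 10 homeostatic genes. Of the plaque-associated genes, Axl, Lpl, Timp2 and Igf1 were instead highest in it among the 7-month saline libraries. In bulk tissue a gene's level may also come from other cell types than microglia. Fewer cells of a type and less RNA per cell cannot be told apart either. Of 18 markers shared by microglia and macrophages, all were above 1 CPM in at least 1 library of each age, with summed levels of 398 to 725 CPM at 7 months and 597 to 744 CPM at 18 months. Markers of macrophages at the brain's borders summed to 24.9 to 35.8 CPM at 7 months and 20.9 to 29.5 CPM at 18 months, and all 8 lymphocyte markers were under 1 CPM in every library. Markers of the choroid plexus, a neighbouring tissue, ranged from 57.9 to 6187 CPM at 7 months and from 21.4 to 1536 CPM at 18 months.

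The promoters of 6 genes are shown, 5 plaque-associated genes and the fractalkine receptor gene Cx3cr1. Apart from Trem2 they were chosen by their measured values. Itgax, Clec7a, Gpnmb and Cst7 were taken for large rises with age under saline, and Cx3cr1 for the largest rise among the homeostatic genes. Each line gives the 120 bases before the RefSeq start on GRCm38.p6, 5′ to 3′ on the gene's strand. Capitals mark the ETS core GAGGAA on either strand, of the kind bound by PU.1, the master factor of macrophages. They also mark TGANTCA, a loose form of the AP-1 motif in which N may be any base. The match is TGAGTCA in Itgax and TGAATCA in Trem2. The stretches are chr6:129472780-129472899 (minus strand) for Clec7a, which has 2 starts in the table, chr7:128129430-128129549 (plus) for Itgax, chr6:49036398-49036517 (plus) for Gpnmb, chr2:150570295-150570414 (plus) for Cst7, chr17:48346281-48346400 (plus) for Trem2 and chr9:120068297-120068416 (minus) for Cx3cr1.
Clec7a: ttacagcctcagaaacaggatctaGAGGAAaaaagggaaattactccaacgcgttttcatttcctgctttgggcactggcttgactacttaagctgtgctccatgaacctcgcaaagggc
Itgax: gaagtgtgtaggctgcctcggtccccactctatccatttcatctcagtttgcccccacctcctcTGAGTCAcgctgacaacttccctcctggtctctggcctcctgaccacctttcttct
Gpnmb: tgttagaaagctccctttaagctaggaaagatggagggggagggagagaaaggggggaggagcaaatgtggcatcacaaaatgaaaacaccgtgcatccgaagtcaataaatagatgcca
Cst7: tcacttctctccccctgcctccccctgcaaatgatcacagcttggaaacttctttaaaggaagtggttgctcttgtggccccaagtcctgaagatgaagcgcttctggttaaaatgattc
Trem2: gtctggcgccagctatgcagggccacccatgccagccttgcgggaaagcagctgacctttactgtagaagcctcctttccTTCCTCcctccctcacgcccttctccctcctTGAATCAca
Cx3cr1: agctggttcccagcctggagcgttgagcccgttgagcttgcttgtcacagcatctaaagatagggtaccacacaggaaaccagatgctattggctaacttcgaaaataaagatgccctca

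RefSeq promoters were found for 25 of the 35 genes, 19 plaque-associated and 6 homeostatic. The 250 bases before the start were searched on both strands, and a gene counted if any of its starts held the motif. GAGGAA stood in 9 of the 19 plaque-associated genes (47.4%) and in 1 of the 6 homeostatic genes, P2ry13. It stood in 25.9% of the 27025 genes with a promoter in the table. TGANTCA, which reads the same on both strands, stood in 4 of the 19 (Trem2, Itgax, Cd68 and Igf1), in 0 of the 6 and in 7.82% of all genes with a promoter. The E-box CACGTG, also its own reverse complement, stood in 0 of the 19, in 2 of the 6 (P2ry12 and Siglech) and in 6.86% of all. The motifs were searched one by one, and Trem2, Cd68 and Igf1 hold both GAGGAA and TGANTCA. These matches describe the letters in the window and say nothing of what binds there.

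The question of the age comparison is whether these genes differ between the younger and the older APP/PS1 mice. The largest differences lay in surface receptors and a lysosomal gene of the plaque-associated subgroup. Itgax, Lilrb4, Clec7a and Gpnmb rose by 1.32 to 2.08 on the log2 scale from 7 to 18 months. Under saline 13 of the 25 plaque-associated genes were higher and 1 was lower at 18 months by edgeR's quasi-likelihood test with Benjamini-Hochberg adjustment, where 46.1% of all genes tested were called (21.5% higher and 24.6% lower). Under nicotine 9 were higher and 2 were lower, where 59.3% were called (29.5% higher and 29.8% lower). The 9 genes called higher under both infusions were Cst7, Itgax, Clec7a, Axl, Csf1, Gpnmb, Lilrb4, Itgb2 and Igf1, where 19.3% of all genes were, and Apoe was called lower under both, where 21.5% of all genes were. With offsets for transcript length and GC content the Igf1 call under nicotine was lost, and Igf1 showed no rise under saline either, as given below. In 12 of the 25 genes all 18-month libraries lay above all 7-month libraries under both infusions, against 20.6% of all genes. The median log2 fold change of the 25 genes was 0.50 under saline and 0.31 under nicotine, and that of all genes tested was -0.03 in both. Leaving out 1 library at a time moved the saline median between 0.45 and 0.76, the highest being without 7-month saline library 3. The nicotine median moved between 0.20 and 0.46.

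Differences of 2-fold or more were found in the plaque-associated subgroup. Under saline 8 of the 25 plaque-associated genes were called with a log2 fold change of 1 or more, against 10.1% of all genes, and under nicotine 5 of 25, against 14.2%. None of the 10 homeostatic genes reached that size under either infusion. Genes of the further lists described below did. The shared marker Ptprc had log2 fold changes of 1.15 under saline and 1.21 under nicotine. The further homeostatic gene Crybb1 had -1.38 and -2.48. As a single number per library, the mean log2(CPM + 0.5) of the plaque-associated genes minus that of the homeostatic genes lay between -1.50 and -0.99 in the 7-month saline and between -1.14 and -1.03 in the 7-month nicotine libraries. It lay between -0.77 and -0.69 in the 18-month saline and between -0.86 and -0.80 in the 18-month nicotine libraries. The 6 libraries at 18 months were all above the 6 at 7 months, and this holds with and without 7-month saline library 2, which had the lowest value.

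**Figure D1:**
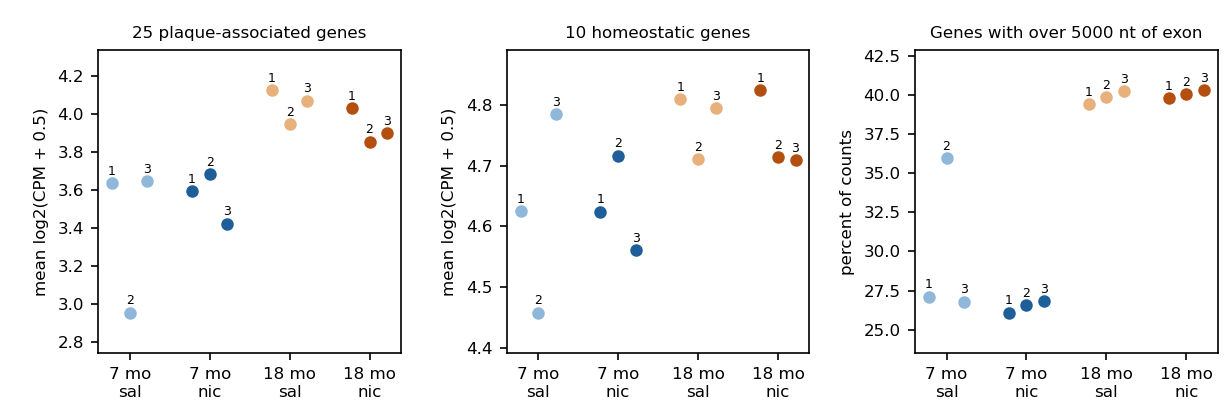
Mean log2(CPM + 0.5) of the 25 plaque-associated genes (left) and of the 10 homeostatic genes (middle), and the percent of counts in genes with over 5000 nt of exon (right), with 1 point per library, labelled by its replicate number, and the groups on the horizontal axis. Saline library 2 at 7 months was lowest in the left and middle panels and at 35.9% in the right panel, above the other 7-month libraries.

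Among the receptors, Itgax (chr7:128129547-128150657), which encodes the integrin chain CD11c, had levels of 3.15, 0.892 and 4.44 CPM in the 7-month saline libraries 1 to 3 and of 2.97, 3.85 and 2.169 CPM under nicotine. At 18 months it had 14.3, 8.99 and 11.2 CPM under saline and 17.2, 10.2 and 10.6 CPM under nicotine. Every 18-month library was above every 7-month library. Its log2 fold change was 2.02 (SE 0.43, adjusted p = 0.00303) under saline and 2.08 (SE 0.43, adjusted p = 0.00134) under nicotine. Its partner chain Itgb2, which encodes the beta-2 integrin CD18, was at 7.71 ± 1.87 CPM (SD) in the 7-month and 15.5 ± 1.84 CPM in the 18-month saline libraries, a log2 fold change of 1.01 (SE 0.18, adjusted p = 0.00135). Under nicotine the Itgb2 log2 fold change was 0.65 (SE 0.18, adjusted p = 0.00855).

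Clec7a (chr6:129461591-129472779) encodes Dectin-1, a receptor for beta-glucans that marks plaque-associated microglia. Its levels were 2.54, 1.32 and 2.39 CPM under saline and 2.39, 2.04 and 1.20 CPM under nicotine at 7 months, and 8.26, 5.57 and 7.74 CPM under saline and 7.37, 4.47 and 6.85 CPM under nicotine at 18 months. The ages did not overlap, and within each 18-month group library 2 was the lowest. This gave a log2 fold change of 1.78 (SE 0.30, adjusted p = 0.000995) under saline and 1.73 (SE 0.31, adjusted p = 0.000564) under nicotine. Lilrb4, an inhibitory receptor of the leukocyte immunoglobulin-like family, was at 0.582 to 0.982 CPM under saline and 0.504 to 1.00 CPM under nicotine at 7 months. It was at 3.24 to 3.35 CPM and 2.50 to 3.49 CPM at 18 months, from 13 to 74 counts per library. Its log2 fold change was 1.99 under both infusions (SE 0.27 under each, adjusted p = 0.000279 under saline and 0.000134 under nicotine). A transcript of Lilrb4 in the full annotation matches one of the neighbouring gene Lilr4b at 95.4% identity over 3786 nt, more than the 1437 nt of exon behind its level per kilobase. In the full annotation Gm49339, on the same strand, shares 1846 nt (35.3%) of its exons, so that how reads were split is uncertain. Axl, a receptor tyrosine kinase that takes up dead cells through its bridging ligand Gas6, was at 47.6 to 54.3 and 41.8 to 49.0 CPM at 7 months and at 60.2 to 71.3 and 61.2 to 63.4 CPM at 18 months, under saline and nicotine. The log2 fold change of Axl was 0.36 (SE 0.09, adjusted p = 0.00705) under saline and 0.43 (SE 0.09, adjusted p = 0.00144) under nicotine.

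The TREM2 receptor and its adaptor did not pass the test in either age comparison. Trem2 (chr17:48346401-48354147) was at 32.4, 13.7 and 41.5 CPM under saline and 30.8, 41.1 and 27.3 CPM under nicotine at 7 months, and at 45.8, 35.8 and 41.5 CPM under saline and 40.0, 36.9 and 36.8 CPM under nicotine at 18 months. The low value was 7-month saline library 2, and the ages overlapped. Trem2 had a log2 fold change of 0.49 (SE 0.29, adjusted p = 0.191) under saline and 0.20 (SE 0.29, adjusted p = 0.581) under nicotine. Without 7-month saline library 3 it was 0.84 under saline and was called (adjusted p = 0.0431), and without library 2 it was 0.18 and was not called. Tyrobp was at 38.4, 14.6 and 39.0 CPM and 35.9, 43.5 and 26.4 CPM at 7 months, and at 31.2, 27.5 and 29.2 CPM and 31.4, 27.0 and 27.7 CPM at 18 months, in the same order of groups. Trem2 and Tyrobp were low together in 7-month saline library 2, where their ratio of CPM was 0.936. That ratio was 0.842 to 1.06 in the 7-month libraries and 1.27 to 1.47 in the 18-month libraries, without overlap. Tyrobp has 564 nt of exon and Trem2 has 1143 nt.

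Genes that act downstream of TREM2 and TYROBP, or on the same signals, were taken as a list of 14, of which 13 were tested. Under saline 8 were higher at 18 months and 0 were lower, and under nicotine 7 were higher and 0 were lower. Of all genes 21.5% were called higher and 24.6% lower under saline, and 29.5% and 29.8% under nicotine. Cd33, a receptor for sialic acids, was at 4.13 ± 0.771 CPM in the 7-month and 9.99 ± 1.26 CPM in the 18-month saline libraries. Its log2 fold change was 1.28 (SE 0.20, adjusted p = 0.000677) under saline and 2.09 (SE 0.21, adjusted p = 3.62e-05) under nicotine. Pik3cg, a catalytic subunit of phosphoinositide 3-kinase, had a log2 fold change of 1.52 (SE 0.19, adjusted p = 0.000216) under saline and 1.13 (SE 0.19, adjusted p = 0.000389) under nicotine. Inpp5d, which encodes the lipid phosphatase SHIP1, was 0.91 higher on the log2 scale under saline (SE 0.13, adjusted p = 0.000499). The transcription factor gene Nfatc1 was 0.94 higher under nicotine (SE 0.14, adjusted p = 0.000216).

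**Figure D2:**
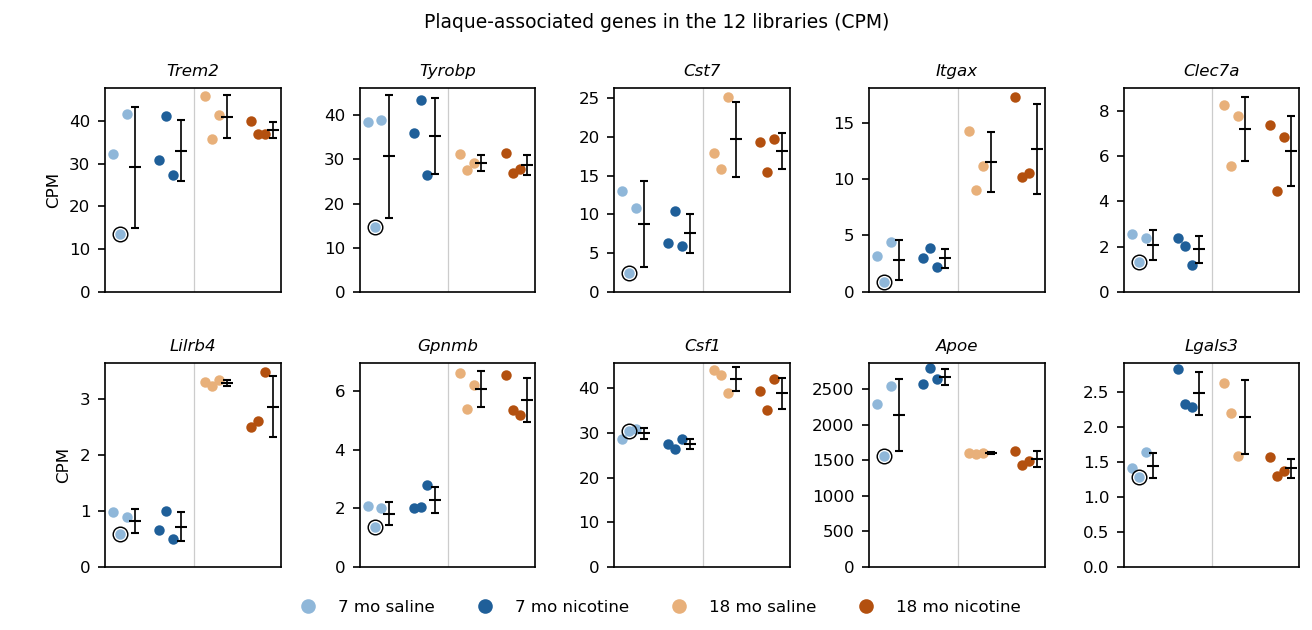
Level of plaque-associated genes in CPM (vertical axes, each from 0) in the 12 libraries, with dots for libraries 1 to 3 from left to right in each group and a bar for the mean ± SD. The circled dot is 7-month saline library 2. Itgax, Clec7a, Lilrb4 and Gpnmb lay higher in all 6 libraries at 18 months than in any at 7 months, and Trem2 and Tyrobp overlapped between ages.

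Of the lipid-handling genes, Apoe, which encodes the main lipid carrier of the brain and is made mostly by astrocytes, was the plaque-associated gene called lower at 18 months under both infusions. It was at 2292, 1565 and 2550 CPM under saline and 2575, 2794 and 2638 CPM under nicotine at 7 months. At 18 months it was at 1608, 1591 and 1609 CPM under saline and 1635, 1430 and 1489 CPM under nicotine. The saline groups overlapped, with 7-month saline library 2 below the 18-month libraries, and the nicotine groups did not. By the test the log2 fold change was -0.41 (SE 0.14, adjusted p = 0.0332) under saline and -0.81 (SE 0.14, adjusted p = 0.000539) under nicotine. With offsets for transcript length and GC content it was -0.12 under saline (adjusted p = 0.285), no longer called, and -0.30 under nicotine (adjusted p = 0.0102). The saline call was also lost without 7-month saline library 1 or 3, without 18-month saline library 1, 2 or 3, or without 18-month nicotine library 3, with values from -0.42 to -0.26 (adjusted p = 0.0515 to 0.169). Lpl, which encodes lipoprotein lipase, was at 94.4 ± 10.9 and 111 ± 8.43 CPM in the 7- and 18-month saline libraries and did not pass. Ch25h, which makes 25-hydroxycholesterol, ranged from 0.272 to 3.37 CPM at 7 months and from 0.944 to 2.88 CPM at 18 months and did not pass.

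Lysosomal and membrane genes follow. Gpnmb, a glycoprotein of lysosome-rich phagocytes, was at 2.07, 1.36 and 2.02 CPM under saline and 2.01, 2.04 and 2.79 CPM under nicotine at 7 months, and at 6.61, 5.39 and 6.20 CPM and 6.56, 5.36 and 5.20 CPM at 18 months. The ages were apart in every library. Its log2 fold change was 1.74 (SE 0.20, adjusted p = 0.000142) under saline and 1.32 (SE 0.20, adjusted p = 0.00023) under nicotine. Cst7, which encodes the cathepsin inhibitor cystatin F, was at 13.01, 2.41 and 10.9 CPM under saline and 6.26, 10.4 and 5.96 CPM under nicotine at 7 months. At 18 months it was at 17.9, 15.9 and 25.1 CPM under saline and 19.3, 15.5 and 19.7 CPM under nicotine. No 7-month library reached the lowest 18-month library. The log2 fold change was 1.16 (SE 0.44, adjusted p = 0.0457) under saline and 1.27 (SE 0.44, adjusted p = 0.0258) under nicotine. The saline call was held without 7-month saline library 1 (1.56) or 2 (0.75) or without 7-month nicotine library 2, and was lost without any of the other 9 libraries (0.95 to 1.34, adjusted p = 0.0538 to 0.148) and with DESeq2 (1.20, adjusted p = 0.0588). The nicotine call was lost without 7-month nicotine library 1 or 3 or 18-month nicotine library 1 or 3 (1.13 to 1.22, adjusted p = 0.0598 to 0.0843).

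Cd68, a lysosomal membrane protein of phagocytes, was at 14.0 ± 5.59 CPM in the 7-month and 23.6 ± 2.78 CPM in the 18-month saline libraries, a log2 fold change of 0.75 (SE 0.24, adjusted p = 0.0224). It lost the call without 18-month saline library 1 (0.66, adjusted p = 0.0757) or 3 (0.74, adjusted p = 0.0574). Lyz2, which encodes lysozyme, was at 14.8 ± 6.78 and 26.2 ± 1.43 CPM in those groups and was called higher under saline. Its exons match Lyz1 at 95.8% identity over 1264 nt, and the CPM of Lyz1 was 0.214 to 0.342 times that of Lyz2 in the 7-month and 0.114 to 0.165 times in the 18-month libraries. Neither Cd68 nor Lyz2 passed under nicotine, although in both the 3 libraries at 18 months lay above those at 7 months. The tetraspanins Cd9 and Cd63 and the protease inhibitor gene Timp2 did not pass in either comparison. Their means were 54.7 to 58.3 CPM, 64.1 to 90.2 CPM and 197 to 252 CPM over the 4 groups.

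Secreted factors were mixed. Csf1, which encodes a growth factor that binds the receptor Csf1r, was at 28.6, 30.3 and 30.9 CPM under saline and 27.6, 26.4 and 28.7 CPM under nicotine at 7 months, and at 44.0, 43.1 and 39.0 CPM and 39.4, 35.2 and 42.0 CPM at 18 months. It varied little within groups and the ages did not overlap. Its log2 fold change was 0.49 (SE 0.09, adjusted p = 0.00112) under saline and 0.50 (SE 0.09, adjusted p = 0.000475) under nicotine. The chemokine gene Ccl3 was at 0.504 to 1.16 CPM in the 7-month and 1.30 to 2.22 CPM in the 18-month saline libraries, a log2 fold change of 1.07 (SE 0.31, adjusted p = 0.0153). That call was lost without 18-month saline library 3 (0.91, adjusted p = 0.0648), and Ccl3 did not pass under nicotine. The related chemokine gene Ccl4, from 2 to 21 counts per library, was called higher under saline, at 0.272 ± 0.183 and 0.763 ± 0.269 CPM, while Ccl6, a further chemokine gene, did not pass, with means of 3.21 to 4.40 CPM over the groups.

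Igf1, an insulin-like growth factor with 9904 nt of exon, the longest of the 35 genes, was at 3.33 to 4.01 CPM in the 7-month and 6.15 to 7.45 CPM in the 18-month nicotine libraries, a log2 fold change of 0.88 (SE 0.18, adjusted p = 0.00143). With offsets for transcript length and GC content the nicotine value was -0.03 (adjusted p = 0.901). Under saline Igf1 was at 4.58 ± 1.08 CPM at 7 months and 6.46 ± 0.982 CPM at 18 months and was called higher. With the offsets the age effect under nicotine minus that under saline was -0.0079 (adjusted p = 0.995). The saline value with the offsets thus showed no rise either. Spp1, which encodes osteopontin, did not pass, with means of 5.37 to 8.91 CPM over the groups. The surface peptide gene Cd52 did not pass either, with means of 3.12 to 4.17 CPM. Lgals3, which encodes galectin-3, a sugar-binding protein of activated phagocytes, was called lower at 18 months under nicotine (-0.81 on the log2 scale, SE 0.22, adjusted p = 0.00723), which was -0.37 with the length and GC offsets (adjusted p = 0.159). Under saline its mean was 1.45 ± 0.183 CPM at 7 months and 2.14 ± 0.527 CPM at 18 months, and it did not pass.

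**Figure D3:**
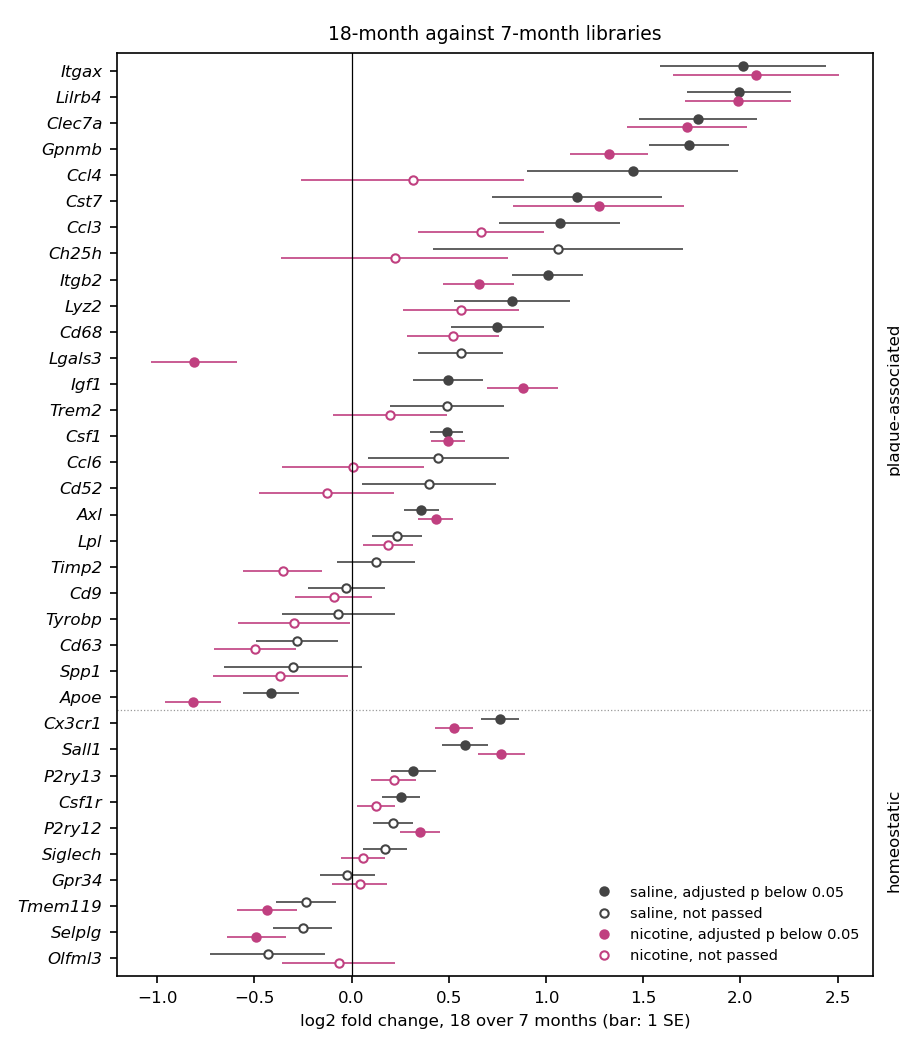
Log2 fold change of the 18-month over the 7-month libraries (horizontal axis, bar 1 SE) for the 35 genes under saline and under nicotine, with filled points for an adjusted p below 0.05. Itgax, Lilrb4, Clec7a and Gpnmb lie farthest to the right under both infusions, and Apoe lies farthest to the left under nicotine, next to Lgals3.

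The scaling and single libraries moved these counts. With offsets for transcript length and GC content, 13 plaque-associated genes were called higher and 0 lower under saline, where the split of all genes moved to 13.6% higher and 26.2% lower (39.7% called). Under nicotine 10 were called higher and 1 lower, where 17.6% were higher and 31.2% lower (48.7% called). The genes behind these counts are not all those called without the offsets, since Igf1 showed no rise with them. The saline count of 14 plaque-associated genes was 8 without 18-month saline library 1 and 9 without 18-month saline library 2 or 3 or 18-month nicotine library 3. It was 10 without both 7-month libraries numbered 3. Calls of Itgax, Clec7a, Lilrb4, Gpnmb, Csf1, Itgb2 and Axl were held under both infusions without each of the 12 libraries in turn.

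The homeostatic genes called for age went in both directions. Under saline 4 of the 10 were called higher (Cx3cr1, Sall1, P2ry13 and Csf1r) and 0 lower. That count was 2 without any 1 of 7-month saline library 1, 7-month nicotine library 1 or 3, 18-month saline library 1 or 3 and 18-month nicotine library 1 or 2. It was 7 (5 higher and 2 lower) without 7-month saline library 2. Under nicotine 3 were called higher (P2ry12, Cx3cr1 and Sall1) and 2 lower (Tmem119 and Selplg). Their median log2 fold change was 0.19 under saline and 0.09 under nicotine. With the length and GC offsets 4 were higher and 0 lower under each infusion. These counts, 4 of 10 and 5 of 10, stand beside the 46.1% and 59.3% of all genes called.

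Cx3cr1 (chr9:119901616-120069879), the receptor for fractalkine, was at 40.6, 39.9 and 46.2 CPM under saline and 36.2, 43.5 and 38.8 CPM under nicotine at 7 months. At 18 months it was at 76.7, 67.7 and 70.5 CPM under saline and 61.7, 52.7 and 56.4 CPM under nicotine. All 18-month libraries lay above all 7-month libraries, with the 18-month nicotine libraries between. Cx3cr1 had a log2 fold change of 0.76 (SE 0.10, adjusted p = 0.000224) under saline and 0.53 (SE 0.10, adjusted p = 0.00068) under nicotine. Sall1 (chr8:89027235-89044162), a transcription factor gene that keeps microglial identity, was at 19.0, 24.8 and 20.5 CPM and 16.4, 15.4 and 19.6 CPM at 7 months, and at 31.7, 33.6 and 31.3 CPM and 31.6, 28.7 and 27.4 CPM at 18 months, under saline and nicotine. The ages did not overlap, and the log2 fold change was 0.59 (SE 0.12, adjusted p = 0.00234) under saline and 0.77 (SE 0.12, adjusted p = 0.000248) under nicotine. The calls of Cx3cr1 and Sall1 held without each library in turn. With the length and GC offsets Cx3cr1 was 0.61 under saline and 0.30 under nicotine, and Sall1 was 0.37 and 0.46.

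The purinergic receptor genes P2ry12 and P2ry13 lie next to each other on chromosome 3. P2ry12, which senses released ADP, was at 23.7, 28.7 and 29.8 CPM and 22.6, 24.6 and 21.1 CPM at 7 months, and at 32.4, 29.0 and 33.8 CPM and 29.3, 29.8 and 28.1 CPM at 18 months, under saline and nicotine. The nicotine groups were apart and the saline groups overlapped. For P2ry12 the log2 fold change was 0.35 (SE 0.10, adjusted p = 0.0113) under nicotine and 0.21 (SE 0.10, adjusted p = 0.109) under saline. The saline value was called without 7-month saline library 2 (0.27, adjusted p = 0.0413) and with the length and GC offsets (0.41, adjusted p = 0.00635). P2ry13 had a log2 fold change of 0.32 under saline (SE 0.12, adjusted p = 0.0404), lost without 7-month saline library 1 or 3, 7-month nicotine library 1 or 3, 18-month saline library 1 or 3, or 18-month nicotine library 1 or 2 (0.25 to 0.35, adjusted p = 0.0513 to 0.151). Csf1r, the receptor for Csf1 and interleukin 34, was 0.26 higher under saline (SE 0.10, adjusted p = 0.0496), and this call held only without 7-month saline library 2 or 3, with an adjusted p of 0.0559 to 0.186 without any of the other 10 libraries. With the offsets it was 0.14 (adjusted p = 0.297). Its exons overlap Hmgxb3 on the opposite strand over 873 nt (15.1% of its exons in the full annotation), and whether strand was used in counting is not given in the sources used here.

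Tmem119, a membrane protein specific to microglia within the brain, was at 29.4, 20.5 and 32.7 CPM and 29.9, 38.1 and 30.1 CPM at 7 months, and at 25.3, 20.9 and 24.0 CPM and 23.7, 24.8 and 24.0 CPM at 18 months, under saline and nicotine. The nicotine groups did not overlap. By the test the log2 fold change was -0.43 (SE 0.16, adjusted p = 0.0303) under nicotine and -0.23 (SE 0.16, adjusted p = 0.237) under saline. With the length and GC offsets the direction turned, to 0.05 (adjusted p = 0.761) and 0.06 (adjusted p = 0.73). The nicotine call was lost without 7-month nicotine library 2 or any of the 3 18-month nicotine libraries (-0.46 to -0.31, adjusted p = 0.0578 to 0.125), and the saline value was called without 7-month saline library 2 (-0.38, adjusted p = 0.0121). Selplg, which encodes the selectin ligand PSGL-1, was lower under nicotine (-0.49 on the log2 scale, SE 0.15, adjusted p = 0.0144), at 50.5 ± 3.83 and 36.0 ± 1.29 CPM. With the offsets this was -0.29 (adjusted p = 0.0589). Gpr34, a receptor for lysophosphatidylserine, and the lectin gene Siglech did not pass, with means of 10.2 to 11.3 CPM and 15.2 to 17.7 CPM over the groups.

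**Figure D4:**
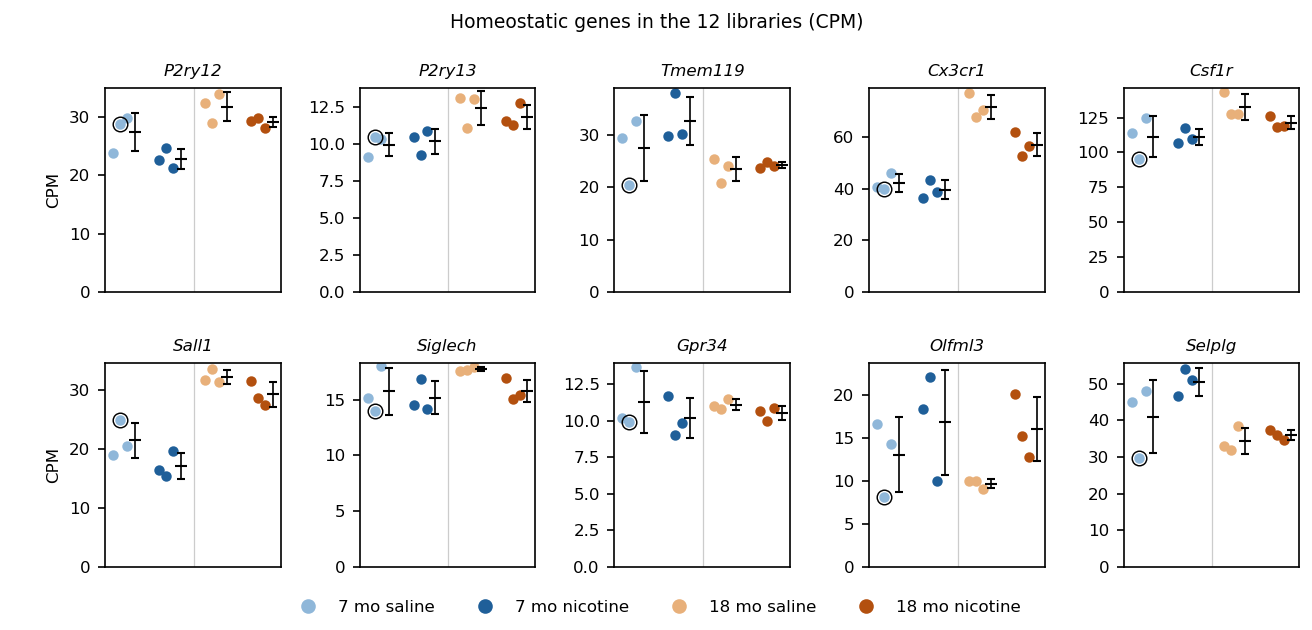
Level of the 10 homeostatic genes in CPM (vertical axes, each from 0) in the 12 libraries, with dots for libraries 1 to 3 from left to right in each group and a bar for the mean ± SD. The circled dot is 7-month saline library 2. Cx3cr1 and Sall1 are higher at 18 months in every library, and Tmem119 and Selplg are lower in the 18-month than in the 7-month nicotine libraries.

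Other genes of these programmes, from lists made beside the 35, also went both ways with age. Of 29 further plaque-programme genes tested, 7 were higher and 2 lower at 18 months under saline, and 9 higher and 4 lower under nicotine, where 46.1% and 59.3% of all genes were called in either direction. Cd180, a Toll-like receptor homologue, was 1.64 higher on the log2 scale under saline (SE 0.20, adjusted p = 0.000163) and 1.51 higher under nicotine (SE 0.21, adjusted p = 0.000126). Fabp5, a fatty acid binding protein found in several brain cell types, had log2 fold changes of -0.58 (SE 0.12, adjusted p = 0.00259) and -0.95 (SE 0.12, adjusted p = 8.57e-05). Of 20 further homeostatic genes, 5 were higher and 3 lower under saline, and 6 higher and 7 lower under nicotine, beside the same shares of all genes. The lens protein gene Crybb1, made by microglia, had log2 fold changes of -1.38 (SE 0.28, adjusted p = 0.00226) under saline and -2.48 (SE 0.27, adjusted p = 5.07e-05) under nicotine, and Nav3 of 0.99 (SE 0.18, adjusted p = 0.0015) and 1.37 (SE 0.19, adjusted p = 0.000127).

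Of 17 ligands and receptors that meet the products of the 35 genes, 10 were higher under both infusions, and 3 were lower under saline and 4 under nicotine, where 21.5% and 29.5% of all genes were higher and 24.6% and 29.8% lower. Igf1r, the receptor for Igf1, had log2 fold changes of 1.18 (SE 0.12, adjusted p = 8.35e-05) and 1.27 (SE 0.12, adjusted p = 2.96e-05). Lrp1, a receptor for Apoe, had 0.96 (SE 0.14, adjusted p = 0.000504) and 1.12 (SE 0.14, adjusted p = 9.73e-05). With the length and GC offsets 7 of the 17 were higher under each infusion, where 13.6% and 17.6% of all genes were. Of the 18 markers shared by microglia and macrophages, 5 were higher and 1 lower under saline and 5 higher and 3 lower under nicotine, where 46.1% and 59.3% of all genes were called. The pan-leukocyte phosphatase gene Ptprc was 1.15 (SE 0.15, adjusted p = 0.000268) and 1.21 (SE 0.15, adjusted p = 9.42e-05) higher on the log2 scale.

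Markers of neighbouring cells moved with age as well. Of 8 tested markers of border macrophages 4 were lower and 0 higher at 18 months under saline, and 1 lower and 0 higher under nicotine. Of the 10 markers of meningeal fibroblasts 8 were lower under saline and 0 under nicotine. These counts stand beside the 24.6% and 29.8% of all genes called lower. Of 10 oligodendrocyte markers 6 were lower under saline and 3 under nicotine, and all 10 had an estimate below 0 under both. Of 8 endothelial markers 1 was higher and 4 lower under saline, and 2 higher and 4 lower under nicotine. Astrocytes, which make most of the Apoe, had 4 of 10 markers higher and 4 lower under saline, and 4 higher and 5 lower under nicotine. Of 10 neuron markers 2 were higher and 2 lower under each infusion, and of 5 tested markers of blood monocytes and neutrophils 1 was lower under saline and 3 under nicotine. None of the 10 choroid plexus markers was called by edgeR or DESeq2, and 0 had an unadjusted p below 0.05 by edgeR, although all 10 had estimates below 0 under both infusions (median -2.53 and -0.98). Of 8 lymphocyte markers 1 was tested, Cd79a, and it was called lower under both. Of 5 red cell markers 3 were lower under each infusion, and red cell markers summed to 138 to 350 CPM at 7 months and 35.3 to 129 CPM at 18 months. Their part in the values of the 35 genes was not tested.

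The treatment comparison asks whether the nicotine infusion changed these genes at either age. None of the 35 genes passed edgeR's quasi-likelihood test with Benjamini-Hochberg adjustment at 7 months, where 0.0114% of all genes tested were called, or at 18 months, where 0.044% were. None passed for the effect averaged over both ages (0.0365% of all genes), or for the difference of the effect between ages (0.00522%), which is also the difference between the age effects under nicotine and under saline. At an unadjusted p below 0.05 there were 1 of the 35 genes at 7 months, 8 at 18 months (4 plaque-associated and 4 homeostatic), 4 for the average and 1 for the difference, where 6.5%, 6.73%, 6.86% and 7.85% of all genes were. DESeq2 called 0 of the 35 at 7 months, for the average and for the difference, where it called 0.499%, 0.48% and 0.232% of all genes. At 18 months it called 2, Cx3cr1 lower and Olfml3 higher, where it called 0.296% of all genes.

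Cx3cr1 had the smallest p of the 35 genes at 18 months. Its 3 nicotine libraries at that age, listed above, all lay below the 3 saline libraries, with a log2 fold change of -0.34 (SE 0.07, adjusted p = 0.278) by edgeR and an adjusted p of 0.0348 by DESeq2. At 7 months the groups overlapped. Olfml3, which encodes a secreted matrix protein, was at 9.96, 10.03 and 9.10 CPM under saline and 20.2, 15.2 and 12.8 CPM under nicotine at 18 months. The nicotine libraries were all above the saline libraries, and library 1 was the highest. The log2 fold change was 0.71 (SE 0.16, adjusted p = 0.391) by edgeR, with an adjusted p of 0.0108 by DESeq2. At 7 months Olfml3 was at 16.6, 8.19 and 14.3 CPM under saline and 18.3, 22.01 and 10.03 CPM under nicotine, and the groups overlapped.

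Lgals3 lay on opposite sides at the 2 ages. At 7 months it was at 1.42, 1.28 and 1.64 CPM under saline and 2.84, 2.33 and 2.29 CPM under nicotine, and at 18 months at 2.63, 2.20 and 1.58 CPM under saline and 1.57, 1.30 and 1.37 CPM under nicotine. Every nicotine library was above the saline libraries at 7 months and below them at 18 months, a pattern seen in 0.427% of all genes. Lgals3 had a log2 fold change of 0.76 (SE 0.21, adjusted p = 0.656) at 7 months and -0.61 (SE 0.23, adjusted p = 0.684) at 18 months. The difference of the effects was -1.37 (SE 0.31, adjusted p = 0.526), so that it failed the adjustment over all genes. These levels rest on 28 to 82 counts per library.

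**Figure D5:**
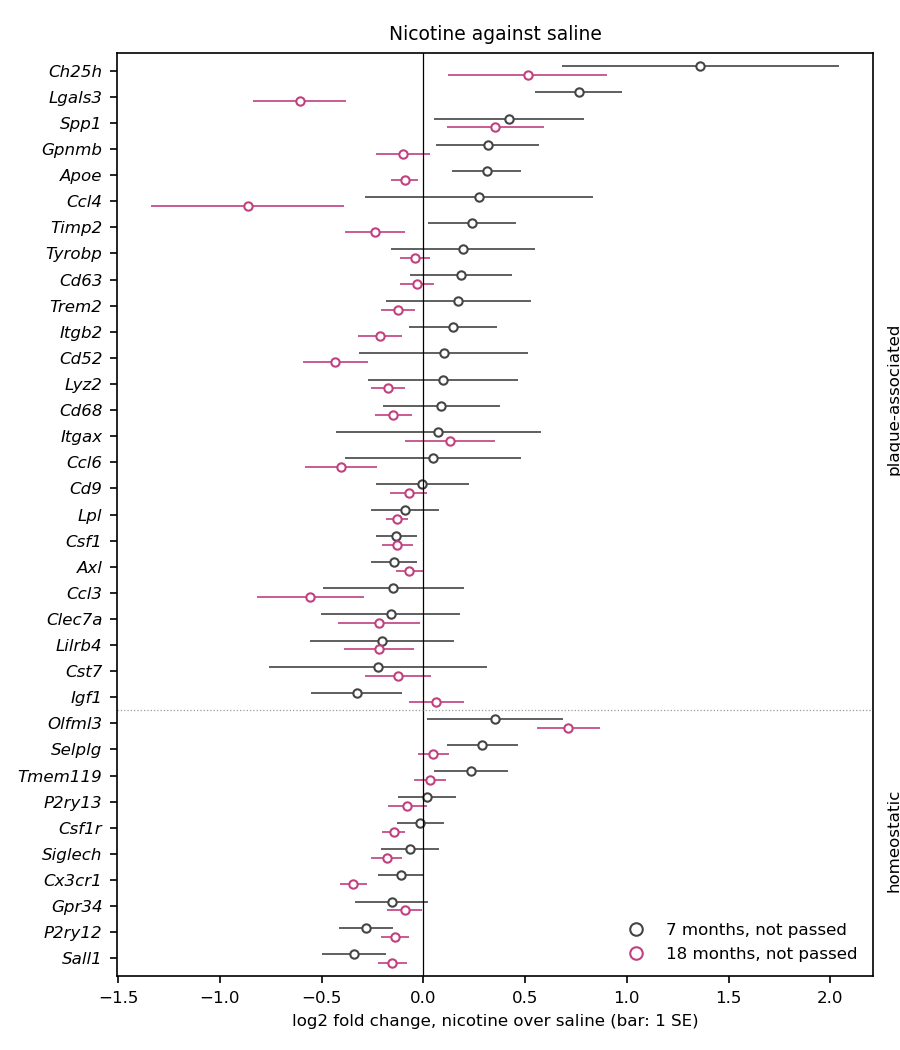
Log2 fold change of nicotine over saline (horizontal axis, bar 1 SE) for the 35 genes at 7 months and at 18 months, with all points open because none had an adjusted p below 0.05. Lgals3 lies to the right of 0 at 7 months and to the left at 18 months, and Olfml3 lies to the right at both ages.

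Further genes had nicotine and saline libraries that did not overlap. At 7 months Apoe and Lgals3 were higher in every nicotine library, where 9.04% of all genes were, and none of the 35 was lower in every one, where 8.37% were. The log2 fold change of Apoe at that age was 0.31 (SE 0.17, adjusted p = 0.656). At 18 months Ccl6, Cd52, Lgals3, Cx3cr1, Csf1r and Siglech were lower in every nicotine library, where 5.15% of all genes were, and Olfml3 was higher, where 6.62% were. At that age Cd52 had a log2 fold change of -0.43 (SE 0.16, adjusted p = 0.672), Csf1r of -0.14 (SE 0.06, adjusted p = 0.693), Lpl of -0.13 (SE 0.05, adjusted p = 0.725) and Ccl6 of -0.40 (SE 0.18, adjusted p = 0.738).

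The 4 genes followed in every comparison gave small or wide estimates. Trem2 had a log2 fold change of 0.17 (SE 0.36, adjusted p = 0.849) at 7 months and -0.13 (SE 0.08, adjusted p = 0.86) at 18 months. Cst7 had -0.22 (SE 0.53, adjusted p = 0.873) and -0.13 (SE 0.16, adjusted p = 0.936). P2ry12 had -0.28 (SE 0.13, adjusted p = 0.656) and -0.14 (SE 0.07, adjusted p = 0.767), and Tmem119 had 0.23 (SE 0.18, adjusted p = 0.66) and 0.03 (SE 0.08, adjusted p = 0.974). At 7 months Trem2 was -0.16 without saline library 2. At 7 months Ch25h, Igf1 and Sall1 had 1.36 (SE 0.68), -0.33 (SE 0.22) and -0.34 (SE 0.16), each with an adjusted p of 0.656, and Ch25h was 0.33 without nicotine library 2, which had 3.37 CPM.

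For the effect averaged over both ages, Cx3cr1 had a log2 fold change of -0.21 (SE 0.07, adjusted p = 0.601), Sall1 of -0.23 (SE 0.08, adjusted p = 0.641), P2ry12 of -0.20 (SE 0.07, adjusted p = 0.652) and Ch25h of 0.94 (SE 0.43, adjusted p = 0.722). Csf1 had -0.12 (SE 0.06), Spp1 0.40 (SE 0.25) and Ccl3 -0.34 (SE 0.22), all with an adjusted p of 0.722. Trem2 had 0.03 (SE 0.21, adjusted p = 0.962), Cst7 -0.17 (SE 0.31, adjusted p = 0.856) and Tmem119 0.15 (SE 0.11, adjusted p = 0.722). None of these was called.

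In the difference between ages, Apoe had -0.40 (SE 0.20, adjusted p = 0.623), Timp2 -0.48 (SE 0.28, adjusted p = 0.625), Cx3cr1 -0.23 (SE 0.14, adjusted p = 0.625), Igf1 0.38 (SE 0.26, adjusted p = 0.641) and Selplg -0.24 (SE 0.21, adjusted p = 0.704). Trem2 had -0.29 (SE 0.42, adjusted p = 0.81), Cst7 0.11 (SE 0.61, adjusted p = 0.96), P2ry12 0.14 (SE 0.15, adjusted p = 0.742) and Tmem119 -0.20 (SE 0.22, adjusted p = 0.754). A p above the threshold does not show that the effects were alike.

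Across the plaque-associated genes the nicotine estimates leaned to opposite sides at the 2 ages. At 7 months 16 of 25 were above 0, with a median of 0.10, and at 18 months 4 of 25 were, with a median of -0.13, where 48.7% and 48.1% of all genes were above 0. Leaving out 1 library at a time moved the 7-month median between -0.13 and 0.29, and the 18-month median between -0.18 and -0.07. The negative 7-month median was the one without saline library 2. Of the homeostatic genes 4 of 10 and 3 of 10 were above 0, with medians of -0.04 and -0.12. The lean was not particular to the plaque-associated genes. Of the 18 markers shared by microglia and macrophages, 13 were above 0 at 7 months (median 0.10) and 4 at 18 months (median -0.10). For the difference between ages the median was -0.29 for these markers and -0.23 for the plaque-associated genes. These are descriptions, and no test was made of them.

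The 5 further lists of microglial genes (shared markers, TREM2 signalling, further plaque-programme genes, further homeostatic genes, and ligands and receptors) gave 0 calls by edgeR in the 4 nicotine comparisons, with 0 to 6 genes of each list at an unadjusted p below 0.05. DESeq2 called Crybb1 at 7 months, Bhlhe40 at 18 months and Mertk for the average, all higher. Mertk was also called for the average by edgeR with the length and GC offsets (0.49, adjusted p = 0.0451). Among the markers of other cell types, the astrocyte connexin gene Gjb6 was called higher for the average by edgeR (0.54, adjusted p = 0.0496) and by DESeq2 at 7 months, at 18 months and for the average. The endothelial marker gene Ly6c1 was called higher by DESeq2 at 7 months and for the average. Gjb6 and Ly6c1 are named after their values were seen. Bhlhe40, a transcription factor gene, had a log2 fold change of 0.38 (SE 0.05, adjusted p = 0.067) at 18 months by edgeR. At 7 months Crybb1 had 1.25 (SE 0.25, adjusted p = 0.633) and Mertk, a receptor for dead cells related to Axl, had 0.53 (SE 0.14, adjusted p = 0.656).

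The spread between libraries was wider at 7 months. The median coefficient of variation of the plaque-associated genes was 31.5% in the 7-month saline and 23.5% in the 7-month nicotine group, and 11.8% and 12.2% in the 18-month groups. For the homeostatic genes it was 13.7%, 9.50%, 6.74% and 5.39%, in the same order. In the fits the common dispersion over all genes was 0.0417 at 7 months and 0.00956 at 18 months. On simulated data a 2-fold change was recovered for 59.6% of genes at 7 months and 79.2% at 18 months, and a 4-fold change for 91.9% and 97%.

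Per kilobase of exon, the level of Apoe was the highest of the 35 genes in every group, at 1162 ± 278 CPM per kb under saline at 7 months and 872 ± 5.40 at 18 months. Timp2, Tyrobp and Cd63 followed in the 7-month saline libraries at 56.9 ± 16.2, 54.4 ± 24.7 and 54.3 ± 14.9 CPM per kb, which do not differ beyond their spread. Trem2 was at 25.5 ± 12.4 CPM per kb there, close to the homeostatic genes Csf1r (22.8 ± 3.06) and Selplg (22.1 ± 5.33) on the same scale. The genes with the largest age differences were among the lowest, with Clec7a at 0.911 ± 0.291, Itgax at 0.653 ± 0.415, Lilrb4 at 0.571 ± 0.147 and Gpnmb at 0.402 ± 0.0876 CPM per kb in the 7-month saline libraries. At 18 months these were 3.14 ± 0.623, 2.65 ± 0.614, 2.29 ± 0.0399 and 1.34 ± 0.137 CPM per kb under saline, still far below Tyrobp at 51.9 ± 3.24.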

How the data were processed

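RNA-seq of hippocampus in 12 libraries (per the labels, 3 per age and infusion) was used as the deposited raw counts per gene, 1 table per age. The aligner was TopHat and the build GRCm38, per the submitters' processing notes. The counting tool, annotation and strand setting are not given in the sources used here. The labels' protocol names a small RNA kit, while the counts cover mRNA. The tables hold 44788 and 44786 genes, joined by name.

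The main test was edgeR 4.0.16 under R 4.3.3 (TMM, filterByExpr, quasi-likelihood F-test, Benjamini-Hochberg over all genes tested, threshold 0.05), on 6 libraries for nicotine within an age and on all 12 for the averaged effect, its difference and age. A gene that passed is called. SE is the absolute log2 fold change over the square root of F. No exact permutation test was used, since its smallest two-sided p is 0.1 with 3 libraries a group.

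Fold changes with SE and adjusted p were given for Trem2, Cst7, P2ry12 and Tmem119, for the 4 plaque-associated and 2 homeostatic genes of smallest p, for passing genes up to 10 and 5, and for up to 3 genes of each further list. The members and lists were chosen with earlier results of these data known. Lyz1 was added after its values were seen.

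Alternatives were RLE size factors, no filter, DESeq2 1.42.0, a replicate block, length and GC offsets (splines with 4 degrees of freedom), and libraries left out. Both 7-month libraries numbered 1, whose descriptions have another prefix, were left out together. Leaving out 7-month saline 2 with nicotine 1, and both numbered 3, was chosen after seeing the data. Exon lengths are from GENCODE M21, promoters from RefSeq and transcript matches from BLAST 2.17.0 (95% identity over at least 200 nt). The fits of nicotine at 7 and at 18 months and of age under saline were tested on simulated data, where false calls made up 6.25%, 8.51% and 5.59% of the calls. Figures used Python 3.11.15 and matplotlib 3.10.9.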

Additional observations from a re-analysis of the deposited data

How the results depend on the processing

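The deviations of libraries sharing a replicate number had correlations of -0.0897 to 0.181 over all genes, which cannot exclude shared handling. The entry Rn18s-rs5 was at 18122.9 and 8305.5 CPM in 7-month saline and nicotine libraries 3. It was at 450 to 712 CPM in the other 7-month libraries and at 21830 to 27337 CPM at 18 months. Its bearing on the 35 genes was not tested. With the replicate block, 13 plaque-associated and 3 homeostatic genes were called for age under saline, 12 and 5 under nicotine, and 0 in the nicotine comparisons. The block with the offsets called 3 homeostatic genes for age under nicotine, where the call of Cx3cr1 was lost (0.29, adjusted p = 0.055). With the block alone Csf1r was no longer called for age under saline (0.26, adjusted p = 0.0632). In the block, Cst7 for the difference between ages was -0.019.

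For age under saline the homeostatic count was 2 with no filter on low counts and 2 without both 7-month libraries numbered 1, and 7 without 7-month saline library 2 and nicotine library 1. DESeq2 called 2 homeostatic genes for nicotine at 18 months. With 1 library left out, calls for age ran from 8 to 15 (plaque-associated, saline), 2 to 7 (homeostatic, saline), 10 to 15 and 4 to 5 (nicotine), and were 0 to 0 in each nicotine comparison. Without 7-month saline library 2 the homeostatic saline count was 7.

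Directions turned mostly for small estimates that were not called. With the offsets they also turned for Igf1 and Tmem119 under nicotine, whose age differences were called without them. Without the pair of saline 2 and nicotine 1, Trem2 was -0.11 at 7 months and -0.11 for the average. Without both numbered 1, Cst7 was 0.30 at 7 months, 0.093 for the average and -0.43 for the difference. Without both numbered 3 it was 0.10 at 7 months and -0.21 for the difference. With the offsets, and with block and offsets, Igf1 was 0.025 and 0.0234 at 7 months, -0.0079 and -0.0051 for the difference, and -0.0265 and -0.0321 for age under nicotine, and Tmem119 was 0.056 and 0.0571 for age under saline and 0.0461 and 0.0464 under nicotine. With 1 library left out, the nicotine estimates ran from -0.16 to 0.51 (Trem2, 7 months), -0.66 to 0.17 (Cst7, 7 months), -0.25 to 0.0928 (Cst7, 18 months), -0.0326 to 0.089 (Tmem119, 18 months), -0.14 to 0.21 (Trem2, average), -0.39 to 0.0309 (Cst7, average), -0.66 to 0.0297 (Trem2, difference) and -0.29 to 0.53 (Cst7, difference). The cause was not tested. Of the values for single genes and medians under all alternatives, 1545 of 1655 kept direction and side of the threshold, and of the other 110, 65 lost a call, 9 gained one, 33 changed sign and 3 moved. The lowest counts in any library were those of Ccl4 (2 to 21), Ch25h (7 to 84), Ccl3 (13 to 49) and Lilrb4 (13 to 74).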
